A study of Homo sapiens with 2 samples.

Results

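HOX genes encode homeodomain transcription factors that give cells their position along the head-to-tail axis. In humans they lie in 4 clusters, HOXA on chromosome 7, HOXB on chromosome 17, HOXC on chromosome 12 and HOXD on chromosome 2, and genes at the same place in different clusters form 13 paralogue groups. Genes of low group number lie at the 3′ end of a cluster and are used early and far forward in the embryo, those of high number lie at the 5′ end and are used later and further back, and mesenchymal cells keep a HOX pattern of their site of origin in culture. Described here are 38 HOX genes, read in HUES9 human embryonic stem cell derivatives through every probe set that the platform annotation assigned to a single one of them. Of the 38 genes, 28 had such a probe set, with 44 probe sets in all, out of 19775 genes that the array reads separately. Cluster A was represented by HOXA2 alone. The other 9 listed HOXA genes and HOXD3 had no usable probe set assigned to any of them singly and were not analysed here.

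The treated culture, SB-OG, came from HUES9 cells of passage 32 that formed embryoid bodies over 10 days with SB-431542 at 10 µM and then grew out on fibronectin, in a chemically defined medium, with SB-431542 at 1 µM. SB-431542 blocks signalling by TGF-β, activin and nodal at their type I receptors. The control culture, control-OG, came from the same line, passage and medium with the vehicle DMSO at 0.01%. RNA was taken at outgrowth passage 5 from a mixture of 3 samples per condition and hybridised to 1 array each. With n = 1 per condition there was no replicate check and no test was made. A pooled culture is a mixture of cells, and a lower signal from fewer cells of a type cannot be told apart from a lower signal per cell.

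An intensity is the deposited linear signal of a probe set, in arbitrary units. A level below which signal was read as background was taken on each array from 213 probe sets of olfactory receptor, taste receptor and other gene families assumed silent in these cells, and was 27.6 on SB-OG and 32.6 on control-OG. Dimmer values were raised to it ahead of any difference, so where a single array exceeded it the fold is a lower bound, written "at least". All log2 differences are SB-OG minus control-OG. Different probe sets of 1 gene gave log2 differences that spread with an SD of 0.46 over 4930 genes, and of 0.52 over the 896 genes of geometric mean intensity under 100, where many HOX genes lie. Levels of different genes are not compared with each other.

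Marker lists differed widely between the arrays. Beside them, 12.4% of all genes above background on an array were 2-fold higher in SB-OG and 13.0% were 2-fold lower. Skeletal muscle markers were higher in SB-OG by over 2-fold for 9 of 9 genes, with summed intensities of 41712 on SB-OG and 319 on control-OG. Mesenchymal markers were 2-fold higher for 1 and lower for 5 of 9 (summed 37732 on SB-OG and 72143 on control-OG), neuronal markers higher for 3 and lower for 1 of 6 above background (11139 and 6975), epithelial markers higher for 1 and lower for 3 of 4 (461 and 16527) and endothelial markers lower for 2 of 3 (88.9 and 1367). Neither array exceeded background for EPCAM and CLDN4 (epithelial), CDH5 and VWF (endothelial), SYP and PAX6 (neural) or NANOG (pluripotent). Pluripotency markers were above background for 2 of 4 genes (summed 314 on SB-OG and 151 on control-OG). The part of these cell types in the HOX differences was not tested.

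HOX transcripts were present on both arrays, and more of those detected were lower than higher in SB-OG, many by less than 2-fold. Of the 28 HOX genes measured, 20 (71.4%) exceeded background on an array, against 63.2% of all genes. Of these 20 genes, 9 (45.0%) had a signal lower by 2-fold or more in SB-OG, against 13.0% of the 12499 genes detected, and none had a 2-fold higher one, against 12.4%. At 3-fold, 4 were lower, against 6.36%, and none was higher, against 6.33%. Among the 11 HOX genes detected on both arrays, 5 were 2-fold lower, against 12.3%, and none was higher, against 10.8%. The 9 lower genes were HOXB2, HOXB3, HOXB5, HOXB6, HOXB9, HOXC4, HOXC5, HOXC10 and HOXD10. By the intensities without a floor, 14 of the 20 were lower and 6 higher in SB-OG, against 49.3% of all detected genes lower. HOXC8, 1 of those 14, turned to a log2 difference of 0.07 when SB-OG was rescaled on the hybridisation controls, a rescaling that adds 0.48 to every gene. HOXB7 and HOXC6, also of the 14, were then at -0.07 and -0.05. The median log2 difference of the 20 genes was -0.58, and that of all genes above background was -0.02. With the rescaling the medians were -0.10 for HOX genes and 0.46 for all genes, and 6 of 20 HOX genes were 2-fold lower, against 7.25% of all genes at that setting. With a background at the 99th percentile, 5 of 15 HOX genes were 2-fold lower, against 11.2% of all genes, and the HOX median was -0.075, against 0.06 for all genes. The floors at that setting were 77.3 on SB-OG and 52.2 on control-OG. This HOX median is the bound of HOXC10, set by the SB-OG floor, while HOXC10 itself had an intensity of 19.6 on SB-OG.

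**Figure D1:**
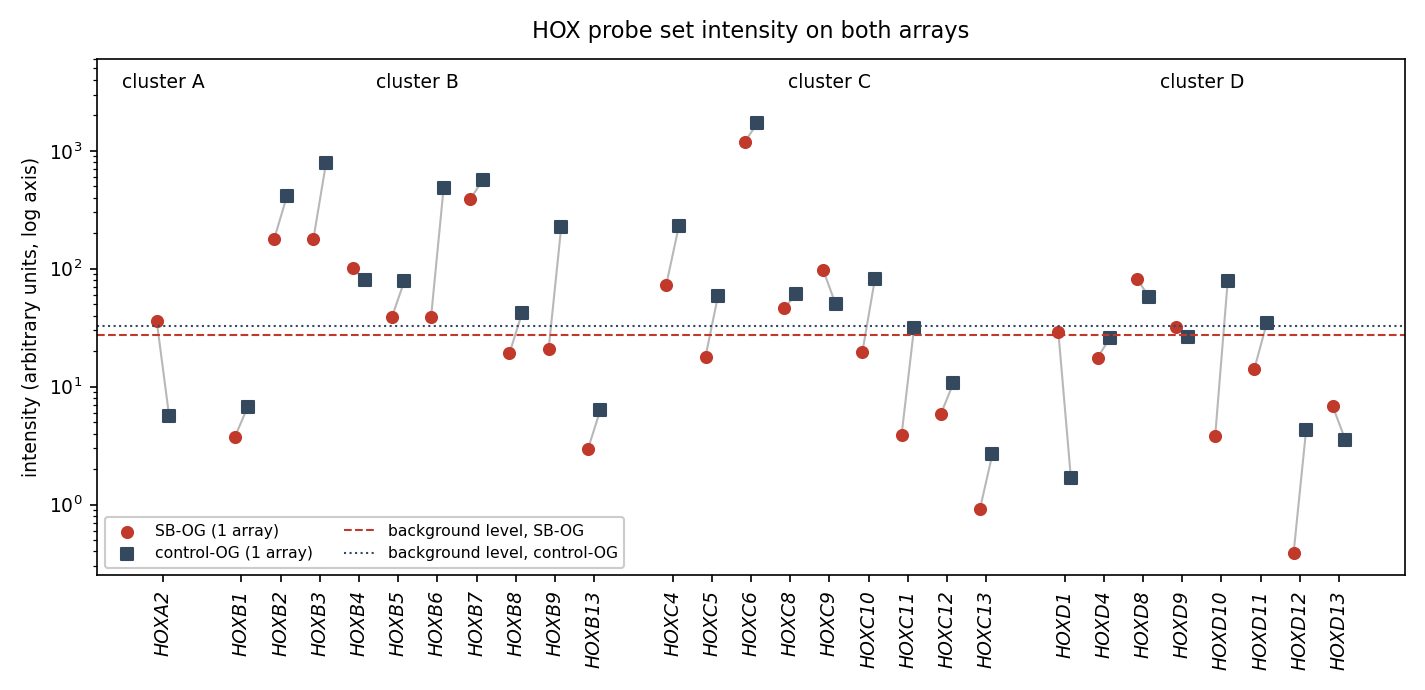
Intensity (arbitrary units, log axis) of the probe set standing for each of 28 HOX genes on the SB-OG array (red circles) and the control-OG array (dark squares), ordered by cluster, with the background level of each array as a horizontal line. HOXB6, at 39.0 on SB-OG and 484 on control-OG, has the widest gap among genes above both lines, and no gene of groups 10 to 13 is above the line of SB-OG.

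With values floored at background, the 3 largest differences, of HOXB6, HOXB9 and HOXB3, were in cluster B. Of its 10 genes, 8 were detected, against 63.2% of all genes. Of these 8, 5 were lower in SB-OG by 2-fold or more, against 13.0% of all detected genes, and none was higher, against 12.4%. Their median log2 difference was -1.11. Among the 6 detected on both arrays, 4 were 2-fold lower, against 12.3% of all such genes, also with a median of -1.11. HOXB2 and HOXB3, of the 3′ part of the cluster and known from hindbrain and pharyngeal patterning, were both lower in SB-OG. HOXB2 had an intensity of 179 on SB-OG and 410.2 on control-OG, a 2.29-fold difference, and HOXB3 had 180.2 and 786, a 4.36-fold difference. The other HOXB3 probe set was under background on both arrays, at 4.18 on SB-OG and 21.4 on control-OG, so the HOXB3 difference rests on 1 probe set. HOXB4, the next gene of the cluster, known for its use in blood progenitors, was slightly higher, at 101 on SB-OG and 79.4 on control-OG. Its log2 difference of 0.35 was within the spread between probe sets.

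The central genes of cluster B, which mark cervical and thoracic levels of the body axis, differed unequally. HOXB5 had an intensity of 38.9 on SB-OG and 78.9 on control-OG, a 2.03-fold difference, and its other probe set gave 34.3 and 86.3. Neither HOXB5 probe set is specific by name, so HOXB5 had no value with only specific ones. HOXB6 had 39.0 on SB-OG and 484 on control-OG, a 12.4-fold difference, the largest among the HOX genes detected on both arrays. The other HOXB6 probe set was under background on both arrays, at 10.7 and 18.8, so the difference rests on 1 probe set. That probe set is not specific by name, and with only specific ones HOXB6 was under background on both arrays. HOXB7 lies next to HOXB6 and differed little, at 389 on SB-OG and 568 on control-OG. Its 3 probe sets, none of them specific by name, gave log2 differences from -0.75 to -0.24, all within 2-fold. HOXB8 was above background on control-OG alone, at 19.2 on SB-OG and 41.9 on control-OG.

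HOXB9, of the thoracic part of the code, was also above background on control-OG alone. Its intensity was 21.0 on SB-OG and 225.9 on control-OG, lower in SB-OG by at least 8.18-fold. The other HOXB9 probe set had 21.96 on SB-OG and 82.1 on control-OG, at least 2.97-fold lower. HOXB1 and HOXB13, at the far ends of the cluster, were under background on both arrays in all 4 of their probe sets. Under rescaling on the hybridisation controls, 3 of the cluster's genes stayed 2-fold lower (HOXB3, HOXB6 and HOXB9), and HOXB2 and HOXB5 were at log2 differences of -0.72 and -0.55.

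In cluster C, 6 of 9 genes were detected, a share near the 63.2% of all genes. Of these 6, 3 were lower in SB-OG by 2-fold or more, against 13.0% of all detected genes, with a median log2 difference of -0.81. Among the 4 detected on both arrays, 1 was 2-fold lower, against 12.3% of all such genes, with a median of -0.47. HOXC4 had an intensity of 73.4 on SB-OG and 229.6 on control-OG, a 3.13-fold difference. HOXC5, its neighbour, had 17.9 on SB-OG, under background, and 59.1 on control-OG, at least 2.14-fold lower. With the 99th percentile as background the HOXC5 bound became 0.39, a value set by the floor of 77.3 on SB-OG, while its own intensities are lower on SB-OG. HOXC6, the next gene, was bright on both arrays, at 1188 on SB-OG and 1710 on control-OG, and HOXC8 had 46.1 and 61.1. Both were within 2-fold. HOXC9 differed in direction from its neighbours, at 97.7 on SB-OG and 50.1 on control-OG, a 1.95-fold higher value that passed 2-fold after centring or rescaling. HOXC10, a gene of lumbar level and hindlimb, had 19.6 on SB-OG, under background, and 81.5 on control-OG, at least 2.95-fold lower in SB-OG. HOXC11 lay just under the control background, at 3.86 on SB-OG and 31.5 on control-OG, and HOXC12 and HOXC13 were under background on both arrays.

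In cluster D, 5 of 8 genes were detected on an array, a share near the 63.2% of all genes. Only HOXD8 was detected on both, at 82.4 on SB-OG and 57.5 on control-OG, a 1.43-fold difference. HOXD10, a gene of lumbar level and the distal limb, had 3.80 on SB-OG and 78.4 on control-OG, at least 2.84-fold lower. The other HOXD10 probe sets, under background on both arrays, read 0.939 and 0.815 on SB-OG and 15.9 and 6.93 on control-OG. HOXD11 had 14.2 on SB-OG and 34.8 on control-OG, barely above background. Its bound of -0.33 became 0.14 under rescaling on the hybridisation controls, a value set by the raised floor of SB-OG. HOXD1 and HOXD9 were above background on SB-OG alone, at 29.1 and 32.1 on SB-OG against 1.68 and 26.1 on control-OG, so close to the floor that no fold is given. Both lost their detection when the higher background was used for both arrays. HOXD4, HOXD12 and HOXD13 were under background on both arrays. HOXA2, the single gene of cluster A with a value, a factor of hindbrain and second pharyngeal arch, had 36.3 on SB-OG and 5.58 on control-OG, at least 1.11-fold higher.

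**Figure D2:**
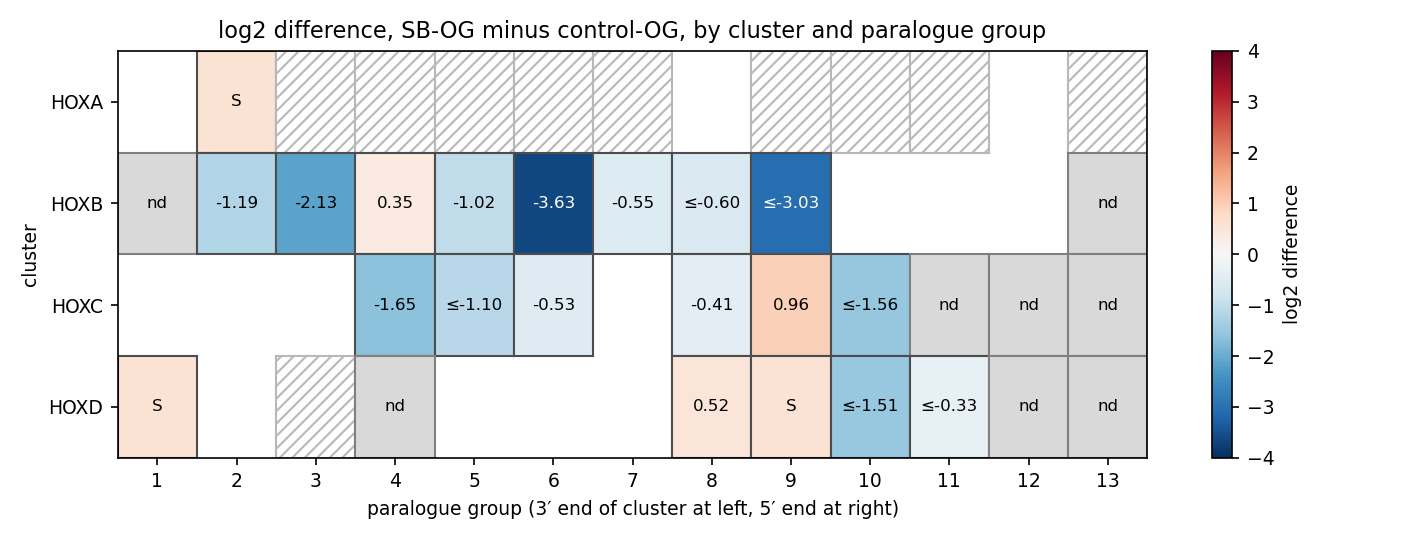
Log2 difference, SB-OG minus control-OG, of each HOX gene by cluster (rows) and paralogue group (columns, 3′ to 5′). Numbers are measured differences, numbers after ≤ are bounds for genes above background on control-OG alone, S marks genes above background on SB-OG alone, nd marks genes under background on both arrays, hatched cells have no probe set of their own, and blank cells hold no listed gene. Values run from -3.63 for HOXB6 to 0.96 for HOXC9; HOXC8 turns to 0.07 when SB-OG is rescaled on the hybridisation controls.

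Detection varied with position along the clusters. For groups 1 to 4, 6 of 8 measured genes were detected on SB-OG and 4 on control-OG, against 58.8% of all genes on SB-OG and 57.0% on control-OG. For groups 5 to 9, 8 of 11 were above background on SB-OG and 10 on control-OG. For groups 10 to 13, none of 9 was above background on SB-OG and 3 were on control-OG, namely HOXC10, HOXD10 and HOXD11. The count of 0 for groups 10 to 13 on SB-OG held under every alternative run, with 2 to 4 genes above background on control-OG. The counts for groups 1 to 4 were 3 on SB-OG and 4 on control-OG with the 99th percentile as background, so the higher number on SB-OG rests on dim genes. In all, 6 of the 20 detected HOX genes (30.0%) were above background on control-OG alone, against 7.00% of all detected genes, and 3 (15.0%) on SB-OG alone, against 9.80%.

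Paralogues, which share most of their homeodomain and bind similar DNA sites, differed in direction or size. In group 4, HOXC4 was 3.13-fold lower in SB-OG and HOXB4 1.27-fold higher. In group 6, HOXB6 was 12.4-fold and HOXC6 1.44-fold lower. In group 8, HOXB8 was at least 1.52-fold lower, HOXC8 1.33-fold lower and HOXD8 1.43-fold higher. In group 9, HOXB9 was at least 8.18-fold lower and HOXC9 1.95-fold higher. In groups 5 and 10 both measured members were lower by 2-fold or more (HOXB5 and HOXC5, HOXC10 and HOXD10). The directions of HOXB4, HOXC8 and HOXD8 are uncertain. Their log2 differences of 0.35, -0.41 and 0.52 do not clearly exceed the SD of 0.52 between probe sets of dim genes. That of HOXC8 turned to 0.07 with rescaling on the hybridisation controls.

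Upstream sequence is shown for some of the genes described. It comes from RefSeq on build GRCh38.p14, as the 250 bases before the annotated start, 5′ to 3′ on the gene's strand. Of the 38 genes, 20 had an entry, with 26 distinct windows. Most of these windows belong to HOXA genes or HOXD3, which have no intensity here. HOXB1, under background on both arrays, is the only HOXB gene with a window. HOXC4 and HOXC5, both lower in SB-OG, are listed with 1 shared window, chr12:54016638-54016887 on the plus strand. HOXD10 and HOXD8 are members of 1 cluster with opposite measured directions, that of HOXD8 not clearly beyond the spread between probe sets. Their windows are at chr2:176116528-176116777 and chr2:176129455-176129704, both on the plus strand. HOXA2, above background on SB-OG alone, has its window at chr7:27102684-27102933 on the minus strand. Capitals mark matches to the motifs searched on both strands, which were TGATNNAT (the composite site of PBX and HOX proteins), TGACAG (a core of MEIS sites), TTTATG (a core bound by CDX and posterior HOX proteins) and GTCTAGAC (the SMAD palindrome), with no overlap between matches in these windows.
HOXC4 and HOXC5: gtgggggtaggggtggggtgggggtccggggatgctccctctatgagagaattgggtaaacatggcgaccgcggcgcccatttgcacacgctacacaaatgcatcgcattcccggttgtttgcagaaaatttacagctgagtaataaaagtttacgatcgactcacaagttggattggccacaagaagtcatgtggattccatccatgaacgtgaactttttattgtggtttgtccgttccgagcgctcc
HOXD10: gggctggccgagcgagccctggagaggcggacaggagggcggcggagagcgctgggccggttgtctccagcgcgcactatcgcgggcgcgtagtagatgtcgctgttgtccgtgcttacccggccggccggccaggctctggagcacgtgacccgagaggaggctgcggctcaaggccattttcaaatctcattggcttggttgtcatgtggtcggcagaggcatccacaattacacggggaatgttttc
HOXD8: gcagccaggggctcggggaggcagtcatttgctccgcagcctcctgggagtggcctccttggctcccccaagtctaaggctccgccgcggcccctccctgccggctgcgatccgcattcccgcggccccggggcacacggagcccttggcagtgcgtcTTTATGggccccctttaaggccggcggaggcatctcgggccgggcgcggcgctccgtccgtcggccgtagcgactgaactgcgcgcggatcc
HOXA2: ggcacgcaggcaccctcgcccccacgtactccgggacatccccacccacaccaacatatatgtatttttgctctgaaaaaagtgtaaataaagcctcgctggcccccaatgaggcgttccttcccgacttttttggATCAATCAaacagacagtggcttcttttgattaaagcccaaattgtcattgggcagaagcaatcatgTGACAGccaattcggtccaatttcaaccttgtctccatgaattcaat

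No match to any of the 4 motifs lay in the HOXC4 and HOXC5 or the HOXD10 window. HOXD8 held TTTATG starting 92 bases before the start, counted as -92. HOXA2 held the PBX-HOX composite on the opposite strand at -114 and TGACAG at -47. Over the 26 HOX windows, most of them of genes without an intensity here, TGATNNAT was found in 3 (11.5%) and TGACAG in 2 (7.69%). TTTATG was found in 3 (11.5%) and GTCTAGAC in none. Among all 35116 RefSeq promoter windows of the same length the shares were 6.47%, 13.03%, 9.64% and 0.182%. A match is a run of letters, not a shown binding site.

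HOX proteins bind DNA together with cofactors of the TALE homeodomain class, and listed genes of this class differed in both directions. Of 10 such genes measured, TGIF1 and TGIF2 among them, all were above background. In SB-OG 3 were 2-fold higher and 1 was 2-fold lower, with a median log2 difference of 0.17. Beside them stand the 12.4% and 13.0% of all detected genes, which hold for this and the lists that follow. PKNOX2, a partner of PBX proteins, had an intensity of 491 on SB-OG and 70.4 on control-OG, a 6.98-fold difference, with its other probe sets at 1.84 to 2.68. PBX2 and PBX3, direct partners of HOX proteins, were 2.23-fold and 2.19-fold higher in SB-OG. Other probe sets of PBX2 ran from -0.38 to 1.19. MEIS2, a cofactor that stabilises HOX and PBX complexes, had 674 on SB-OG and 2122 on control-OG, a 3.15-fold lower value in SB-OG. MEIS1 had 192 and 234, within 2-fold.

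Polycomb complexes keep unused HOX genes silent, and Trithorax complexes keep used ones active. All 25 Polycomb genes measured were above background, with 6 that were 2-fold higher and none 2-fold lower in SB-OG, and a median of 0.28. CBX2, a reader of the Polycomb mark, had 250.7 on SB-OG and 43.5 on control-OG, a 5.76-fold difference, but its other probe sets lay between -0.67 and 0.31. PCGF5, a subunit of a Polycomb ubiquitin ligase, was 3.97-fold higher in SB-OG, with other probe sets at 1.72 to 2.66. EZH2, the methyltransferase that sets the mark, had 284 on SB-OG and 107 on control-OG, a 2.65-fold difference, while its partners EED and SUZ12 were within 2-fold. RBBP4, JARID2 and MTF2 were 2.36-fold, 2.15-fold and 2.003-fold higher. Their other probe sets lay at 0.50 to 1.44, at 0.75 and at 0.89 to 1.87, in part under 2-fold. Of 13 Trithorax genes and demethylases of the Polycomb mark, 2 were 2-fold higher, a share near that of all genes, and none lower, with a median of 0.24. WDR5, a scaffold of the methyltransferase complexes, was 6.99-fold higher in SB-OG with another probe set at 1.51, and KDM6B, a demethylase of the Polycomb mark, was 2.63-fold higher.

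Non-coding genes of the clusters were mostly dim. Of 18 listed, 11 had a probe set, 4 exceeded background on an array by their brightest probe set, 1 was 2-fold lower in SB-OG and none 2-fold higher. The lower one was HOXB-AS3, an antisense gene that overlaps HOXB5 and HOXB6. Its brightest probe set had 16.7 on SB-OG and 92.2 on control-OG, at least 3.34-fold lower. Of its 5 probe sets, none was above background on SB-OG and 3 were on control-OG, where the others read 206.8 and 108.6 against 4.83 and 1.24 on SB-OG. HOTTIP, at the 5′ end of cluster A, had 48.3 on SB-OG and 64.7 on control-OG. HOXA11-AS had 15.6 and 37.6, and HOXD-AS2 had 37.0 and 60.0. HOXB-AS1 had 26.7 and 23.7 in its brightest probe set and 37.9 on SB-OG and 15.04 on control-OG in the other. HOTAIR, transcribed within cluster C, was under background on both arrays.

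The nearest protein-coding genes outside the clusters, 2 on each side, had differences in both directions. Of 16 such genes, 15 had a probe set and 12 were above background, with 2 that were 2-fold higher and 2 that were 2-fold lower in SB-OG, and a median of 0.01. CALCOCO2, an autophagy receptor beside cluster B, was 3.43-fold lower in SB-OG with other probe sets at -1.39 to -0.27, and SNX10, an endosomal sorting gene beside cluster A, at least 2.34-fold lower. CBX5, a heterochromatin protein beside cluster C, was 3.84-fold higher with its 5 other probe sets at 0.15 to 2.17, and HNRNPA3, an RNA-binding protein beside cluster D, 2.14-fold higher. SKAP2, LNPK, MTX2, CALCOCO1, SMUG1, SNX11, HIBADH and ATP5MC2 were within 2-fold.

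Retinoic acid and caudal factors act upstream of HOX genes in the embryo. Of 9 retinoic acid genes measured, 7 were above background, of which 1 was 2-fold higher and 2 were 2-fold lower in SB-OG. The synthesis enzymes differed by gene. ALDH1A2, the main enzyme of the embryonic trunk, had 465 on SB-OG and 11.99 on control-OG, at least 14.3-fold higher, with another probe set at 1.21. ALDH1A1 and ALDH1A3 were 20.04-fold and 11.6-fold lower in SB-OG. The receptors RARA and RARG were at log2 differences of 0.52 and -0.90, and RARB had 23.2 on SB-OG and 39.2 on control-OG. Of the 8 caudal and axial timing genes, GDF11, a TGF-β family ligand that in mouse sets the onset of posterior Hox use, was above background, at 78.3 on SB-OG and 71.5 on control-OG. Neither array exceeded background for CDX1, CDX2, CDX4, TBXT, NR6A1, LIN28A or LIN28B. After rescaling on the hybridisation controls, 24.4% of all genes were 2-fold higher and 7.25% lower. At that setting 4 TALE, 7 Polycomb and 5 Trithorax genes were 2-fold higher, and of the genes beside the clusters 3 were higher and 1 lower.

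**Figure D3:**
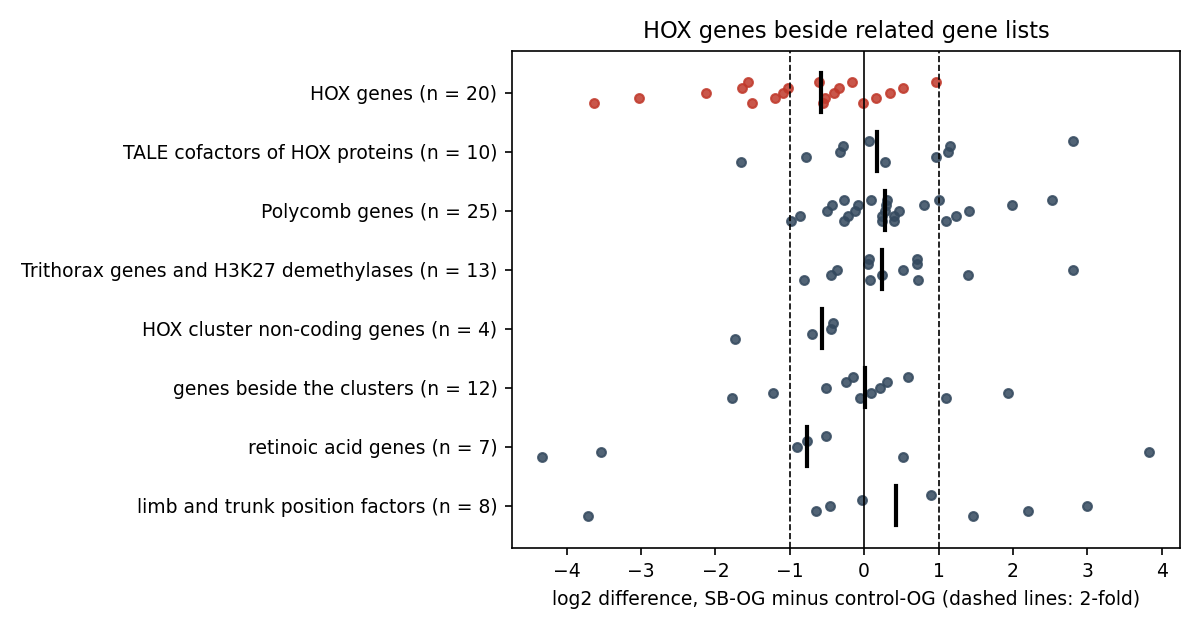
Log2 difference, SB-OG minus control-OG, of each gene above background on at least 1 array (points, with bounds for genes above it on a single array) in 8 lists, with the list median as a black bar and 2-fold as dashed lines. The HOX median lies at -0.58, those of the Polycomb and TALE lists at 0.28 and 0.17, and that of the genes beside the clusters at 0.01.

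Across the alternatives in scaling, probe set, floor and background, HOXB3, HOXB9 and HOXC4 were lower by 2-fold or more in all 11 that gave them a value, and HOXB6 in all 10. HOXB2 was 2-fold lower in 10 of 11 and HOXC10 in 10 of 11, HOXD10 in 9 of 10, HOXC5 in 8 of 11 and HOXB5 in 6 of 10. HOXB8 and HOXD11 passed 2-fold lower in 1 each. HOXC9 passed 2-fold higher in 2 of 11, and HOXA2 and HOXD1 in 2 each, without a floor and with a pseudocount. HOXB4, HOXC6, HOXB7 and HOXD8 did not pass 2-fold in any. These tallies are not independent checks. A change in the choice of probe set cannot move a gene with 1 probe set, and a change of floor cannot move a gene that lies above both floors. HOXC4, for example, stayed at -1.65 with the mean of all probe sets and without a floor.

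**Figure D4:**
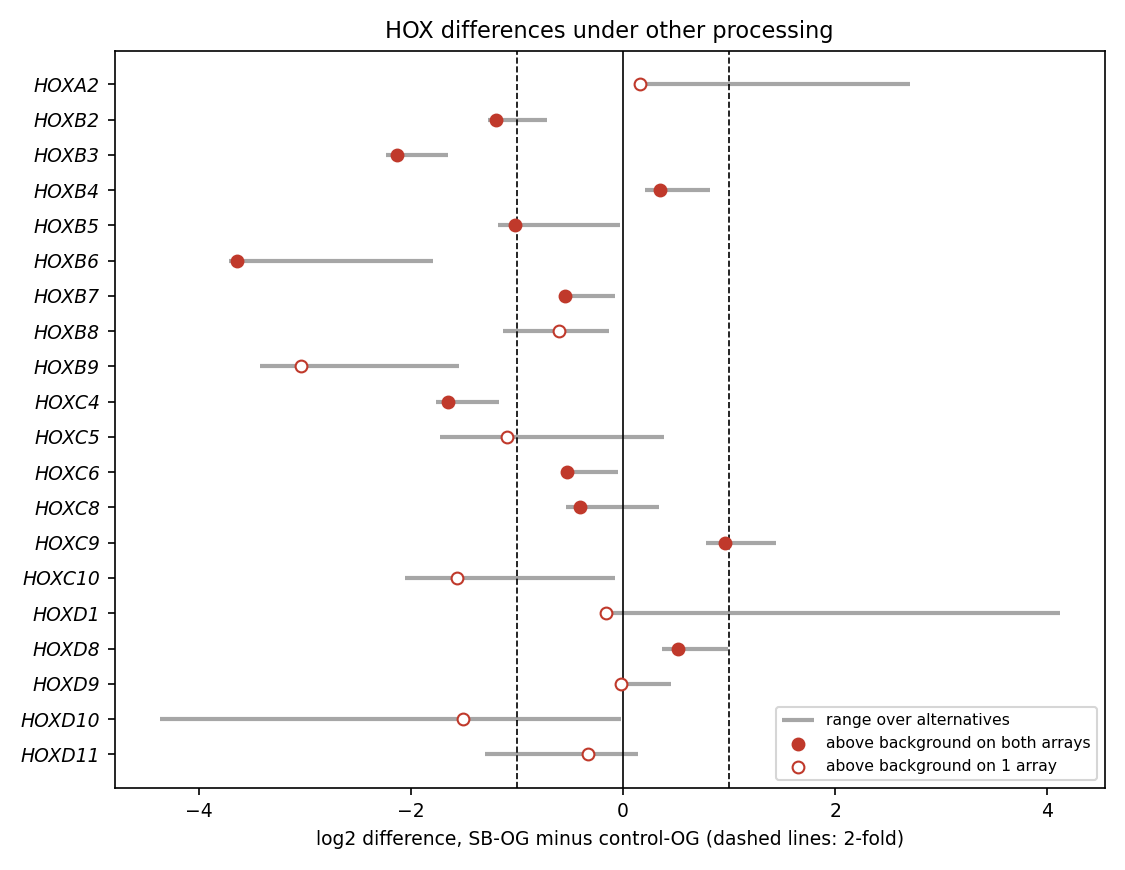
Log2 difference, SB-OG minus control-OG, of the 20 detected HOX genes (circles, filled where both arrays exceeded background) and the range over up to 11 alternatives as grey bars and 2-fold as dashed lines. HOXB6 stays between -3.71 and -1.79 and HOXB3 between -2.23 and -1.65, whereas HOXD10 runs from -4.37 to -0.02, an upper end set by a floor. The bars of HOXC5, HOXC8, HOXD1, HOXD9 and HOXD11 cross 0, in part by values that the floors set.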

How the data were processed

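Frozen mixed HUES9 outgrowth cultures gave the RNA, purified on columns and labelled by in vitro transcription per the labels' protocols, and each condition had 1 Affymetrix array. The values are linear intensity, as the authors deposited them for 54675 probe sets per array. Their summarising software was not stated in the sources at hand. The mean after trimming 2% of probe sets at each end was 150.0 on both arrays, so the arrays hold no measure of the amount of RNA in a cell. Medians of log2 values differed by -0.05, and values were used as deposited. The platform annotation, joined to RefSeq symbols, named a single gene for 41091 probe sets, and the probe set with the highest mean log2 value stood for its gene. Background was the 95th percentile of 213 probe sets of 172 genes in families assumed silent. Genes were counted at 2-fold. Precision is limited by having 1 array per condition. The ratio of 3′ to 5′ GAPDH signal was 0.958 on SB-OG and 0.995 on control-OG, and that of ACTB was 1.55 and 1.65.

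The members, gene lists and alternatives were chosen with earlier results of these data known. Every HOX member with a probe set is named. Of each related list, members that differed by 2-fold are named, at most 6, and any other member named was picked with its value in view. The calculation was tested on simulated data. Calculations used pandas 2.3.3, numpy 2.4.6 and statsmodels 0.14.6 under Python 3.11.15, with figures from matplotlib 3.10.9.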

Additional observations from a re-analysis of the deposited data

How the results depend on the processing

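The count of HOX genes at least 2-fold lower, 9 as reported, was 4 at 3-fold (against 6.36% of all genes) and 5 with the 99th percentile as background. The count 2-fold higher, 0 as reported, was 1 after centring or rescaling on the hybridisation controls, and 2 without a floor or with a pseudocount of 16. The HOX median, -0.58 as reported, was -0.10 with that rescaling, -1.07 without a floor and -0.075 with the 99th percentile. The last value was set by the higher floor on SB-OG. Lower genes of cluster B, 5 as reported, numbered 3 with that rescaling, with probe sets specific by name and at 3-fold. Those of cluster C, 3 as reported, numbered 1 with the 99th percentile and at 3-fold. Those of cluster D, 1 as reported, numbered 0 with the mean of all probe sets, the 99th percentile and at 3-fold, and 2 without a floor. The HOXC5 bound, -1.10 as reported, became 0.39 with the 99th percentile, a value set by the higher floor on SB-OG. A single floor for both arrays and a background without pseudogenes were chosen after seeing the data and gave 8 of 18 and 9 of 21 genes 2-fold lower. No paired analysis was possible because each condition has 1 array.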

Other observations

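Other factors of position differed as well. Of 11 limb and trunk factors measured, 8 were above background, of which 3 were 2-fold higher and 1 was 2-fold lower in SB-OG, beside 12.4% and 13.0% of all detected genes. TBX15, a factor of limb and skin mesenchyme, had an intensity of 267 on SB-OG and 33.5 on control-OG, a 7.97-fold difference. MEOX2 and MEOX1, homeobox genes of the somite, were at least 4.61-fold and at least 2.77-fold higher, at 150.3 and 90.1 on SB-OG against 3.97 and 14.3 on control-OG. PITX1, the hindlimb factor, had 1.96 on SB-OG and 363 on control-OG, at least 13.1-fold lower, with another probe set at -2.46. TBX4 and TBX5, the factors of hindlimb and forelimb, were not above background on either array.

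Of 11 anterior brain genes measured, 3 exceeded background on an array and 1 was 2-fold higher in SB-OG. EN2, a gene of the midbrain and hindbrain boundary, had 123.2 on SB-OG and 0.736 on control-OG, at least 3.78-fold higher. OTX2, SIX3, EN1 and GBX2 were not above background on either array. None of the 4 ParaHox and EVX genes measured was above background.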
